A study of Arabidopsis thaliana with 14 samples.

Results

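AGAMOUS (AG, AT4G18960), SHATTERPROOF1 (SHP1, AT3G58780), SHATTERPROOF2 (SHP2, AT2G42830) and SEEDSTICK (STK, AT4G09960) are the 4 Arabidopsis thaliana genes of the AGAMOUS clade, and binding of FLM was examined at each of them. A deposited region belonged to the clade when one of these genes lay at its centre, or was the nearest gene on either side at 5000 bp or less from the centre. By this rule 16 of 43690 deposited regions were found, 4 of 19893 for gFLM, 8 of 13791 for iFLMbeta and 4 of 10006 for iFLMdelta. STK had 5 of them, SHP1 had 5, and SHP2 and AG had 3 each.

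FLM is a MADS-box transcription factor that delays flowering, and its transcript is spliced into variants that include FLMbeta and FLMdelta. MADS-box proteins bind DNA as dimers at short AT-rich elements called CArG boxes, and the genes of the AGAMOUS clade encode MADS-box proteins as well. AG specifies stamens and carpels and ends the growth of the floral meristem, and elements in a large intron of AG are known to control it. SHP1 and SHP2 act redundantly in the margins of the fruit valves where the fruit opens. STK gives ovules their identity together with both SHP genes, and it acts in the seed stalk as well. In seedlings these genes are known to be kept silent by Polycomb proteins.

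Chromatin was immunoprecipitated with an antibody against GFP and sequenced in 14 libraries of whole Columbia-0 seedlings. The gFLM-GFP group (3 libraries, DP28) and its control with untagged FLM (3 libraries, DP34) were 15 days old and had been kept at 16 °C. The iFLMbeta-GFP group (2 libraries, DP103) and its control (2 libraries, DP96), and the iFLMdelta-GFP group (2 libraries, DP104) and its control (2 libraries, DP97), were 10 days old and had been kept at 23 °C. All 6 groups grew in long days and were harvested at zeitgeber time 8 h. What the prefixes g and i, the DP codes and the number after each variant's DP code stand for is not explained in the labels, nor are the promoters of the constructs. The antibody is not given for 1 gFLM-GFP library, that of replicate 2. Age and temperature change with the construct between gFLM and both variants, so these cannot be told apart. The labels do not say whether libraries of a group came from separate plants, so a p-value covers the spread between libraries alone, and that spread may be technical. Reads summed over deposited regions ranged from 17293 to 437712 in gFLM, 52819 to 194811 in iFLMbeta and 71083 to 211113 in iFLMdelta. Replicate 2 of gFLM was the shallowest of its construct, with 74740 GFP and 17293 control reads.

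SHP2 was the 1 gene of the 4 with a region that passed in every replicate, and it did so in gFLM and in iFLMbeta. A region is said to pass when each replicate of its construct had an authors' q-value of 0.05 or less. In gFLM 1 of 4 clade regions passed, against 0.799% of all deposited regions, and in iFLMbeta 1 of 8 passed, against 1.46%. In iFLMdelta 0 of 4 passed, against 0.41%. Counted by gene, 1 of 4 had a passing region in gFLM and in iFLMbeta, where 1.1% and 1.43% of 27562 protein-coding genes did, and 0 of 4 in iFLMdelta, where 0.272% did. The deposited regions had been called on the same libraries, so every test of GFP against control below repeats part of that selection. It describes how firmly the counts separate.

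**Figure D1:**
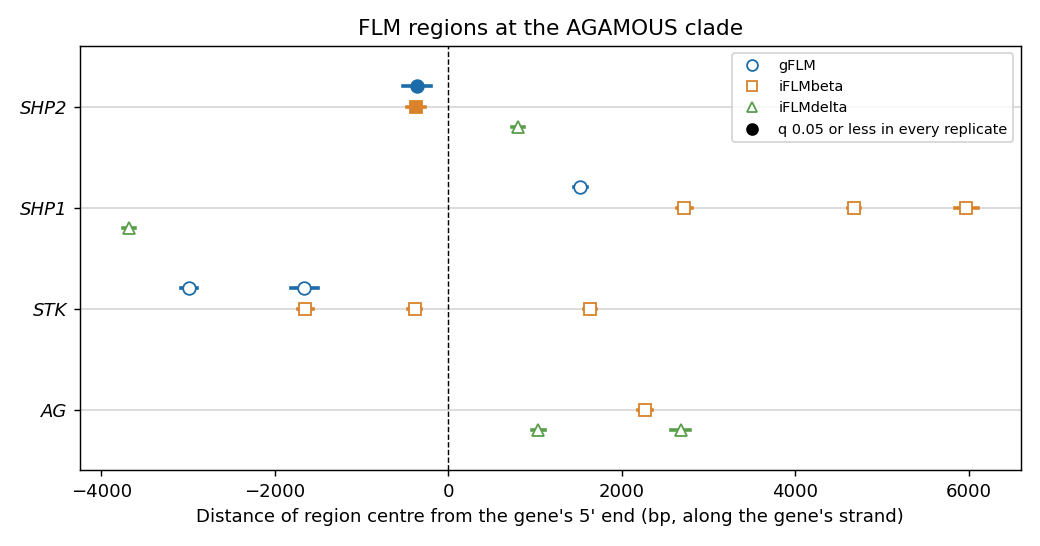
Position of the 16 regions relative to the 5' end of each gene, in bp along the strand of the gene, for gFLM (circles), iFLMbeta (squares) and iFLMdelta (triangles). Horizontal strokes show the width of a region, and filled symbols mark q of 0.05 or less in every replicate, which was reached 360 and 369 bp upstream of SHP2.

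The gFLM region at SHP2 spans chromosome 2, 17819732 to 17820057 (build TAIR10), with its centre 360 bp upstream of the 5' end of SHP2. It is intergenic, and it also lies 1349 bp upstream of HVA22F (AT2G42820), which runs in the opposite direction. The GFP libraries had 117, 22 and 28 reads there, against 18, 0 and 22 reads in the controls of replicates 1, 2 and 3. Per 100000 reads in deposited regions these were 26.7, 29.4 and 17.8 in the GFP libraries, against 9.86, 0 and 11.1 in the controls. Every GFP library stood above every control on this scale, which held for 1 of the 4 clade regions of gFLM and for 4.63% of all deposited gFLM regions. The scaled level averaged 24.7 ± 6.1 in GFP libraries and 6.98 ± 6.08 in controls (SD, n = 3 each).

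The separation differed between replicates. Scaled log2 ratios of GFP to control, with 1 read added to each count, were 1.37, 2.41 and 0.67 in replicates 1, 2 and 3, a mean of 1.48 ± 0.88 (SD, n = 3). The authors' q-values in the same order were 1.59e-08, 3.35e-04 and 0.01003. In replicate 3 the raw reads were close, 28 in GFP and 22 in control, and neither the test nor the scaling behind that q-value is stated in the sources. Without the shallow replicate 2 the mean ratio was 1.02. By edgeR's quasi-likelihood test over 5230 gFLM regions the log2 fold change was 1.42 with a standard error of 0.68, an unadjusted p of 0.0434 and an adjusted p of 0.812, so this region was not called. Without both libraries of replicate 2 the fold change was 1.21 on the log2 scale, with an adjusted p of 1.

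The iFLMbeta region at SHP2 lies wholly within the gFLM region (chromosome 2, 17819782 to 17819989, 208 bp) and is centred 369 bp upstream of SHP2. Its 2 GFP libraries had 32 and 48 reads, against 3 and 3 reads in the controls. Scaled as above the levels were 16.4 and 26.4 per 100000 in GFP libraries, against 2.77 and 5.68 in controls. The groups did not overlap, which held for 1 of the 8 clade regions of iFLMbeta and for 12.5% of all deposited ones. The mean log2 ratio was 2.01 ± 0.26 (SD, n = 2), with GFP and control columns paired by number. With the control columns crossed the ratios were 1.16 and 2.87, an SD of 1.21 about the same mean. The q-values were 1.32e-05 and 8.49e-06. edgeR gave a log2 fold change of 2.49 with a standard error of 0.71, an unadjusted p of 4.51e-04 and an adjusted p of 0.118 over 7337 regions, which also missed the threshold of 0.05.

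**Figure D2:**
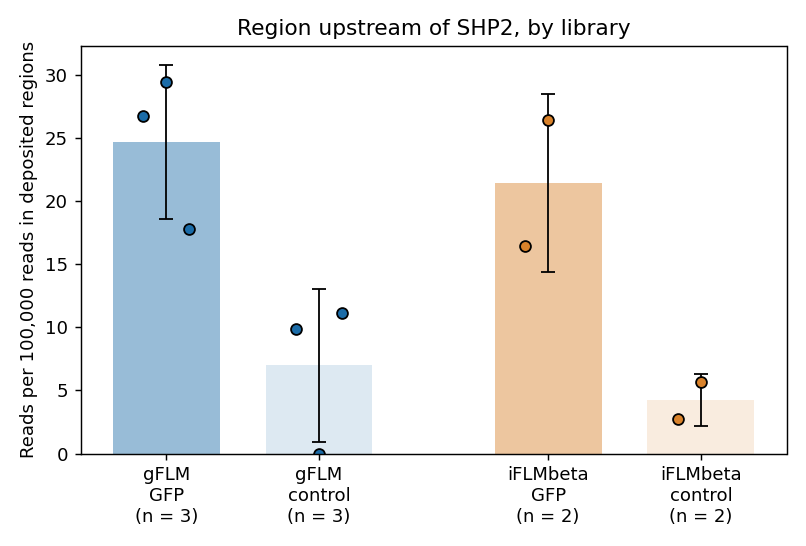
Reads in the region upstream of SHP2 per 100,000 reads in all deposited regions, for gFLM and iFLMbeta GFP libraries and their controls. Bars are means, error bars are SD and points are single libraries. All GFP libraries stand above all controls of the same construct, and the lowest GFP value, 16.4, belongs to iFLMbeta.

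Among passing regions, that of SHP2 held place 108 of 159 in gFLM by the authors' rank (rank 115 of all deposited regions) and place 108 by mean log2 ratio. In iFLMbeta it held place 57 of 202 by rank and place 20 by mean ratio. Its ratio was thus below the median of passing regions in gFLM (1.48 against 1.68) and above it in iFLMbeta (2.01 against 1.01). The difference between the constructs was tested by an edgeR interaction term over 1953 regions deposited for both. The enrichment at SHP2 in gFLM minus that in iFLMbeta was -1.25 on the log2 scale with a standard error of 0.94, an unadjusted p of 0.19 and an adjusted p of 1. edgeR called 0% of these regions (0 of 1953, with 35 at an unadjusted p under 0.05), so no difference at SHP2 was detectable.

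The iFLMdelta table lists no region at that place, and its region for SHP2 lies within the gene. It is in an intron, 804 bp past the 5' end (chromosome 2, 17820985 to 17821132), and does not overlap the region above. The GFP libraries had 21 and 4 reads, against 4 and 4 in the controls. The log2 ratios were 0.83 and -0.52, a mean of 0.15 ± 0.95 (SD, n = 2), so the replicates went opposite ways. In this construct every GFP library stood above every control at 0 of the 4 clade regions, against 13.8% of all deposited regions. The q-values were 0.0501 and 0.588, the first of them just over the threshold. Its rank was 3486 of 10006.

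SHP1, the closest relative of SHP2, had no region at the matching place. The gFLM and iFLMbeta tables list none within 5000 bp upstream of its 5' end. The gFLM region of SHP1 is in an intron, 1522 bp past the 5' end (chromosome 3, 21739908 to 21740055). It had 4, 0 and 10 GFP reads, against 4, 0 and 2 control reads. Replicate 1 had a log2 ratio of -1.26, replicate 3 had one of 2.21, and replicate 2 had no reads to form one. The q-values were 0.942, 1 and 0.0123, so 1 of 3 replicates met the threshold.

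The best ranked iFLMbeta region of SHP1 is in a coding exon, 2723 bp past the 5' end (chromosome 3, 21741095 to 21741270). It had 11 and 13 reads in GFP libraries and 8 and 0 in controls. The log2 ratios were -0.43 and 2.02 and the q-values 0.366 and 0.0346, so again 1 replicate carried the signal. By edgeR the log2 fold change was 0.52 with a standard error of 1.11 and an adjusted p of 1. The other iFLMbeta regions of SHP1 lie 620 and 1915 bp past its end, both in introns of GAUT15 (AT3G58790), a gene of a family of pectin-synthesising enzymes. The nearer of these had 9 and 5 GFP reads against 9 and 2 control reads, and the farther had 32 and 20 GFP reads against 21 and 6. Ratios were below 0 in both replicates at each, with means of -0.81 ± 0.04 and -0.23 ± 0.04 (SD, n = 2). Crossing the control columns widened these SDs to 0.95 and 0.83, and the ratios of the farther region were then 0.35 and -0.81, on both sides of 0.

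In iFLMdelta the region of SHP1 is 3682 bp upstream, in a coding exon of AT3G58770 (chromosome 3, 21734707 to 21734849). It had 18 and 8 GFP reads against 8 and 5 control reads, with a mean log2 ratio of -0.08 ± 0.21 (SD, n = 2). It was the farthest region the distance limit admitted. The nearest beyond the limit were in iFLMbeta, 6137 bp upstream of SHP1 (14 GFP and 0 control reads in column 2, q of 0.0259, and 8 against 8 in column 1) and 7421 bp upstream of AG (17 and 14 GFP reads against 16 and 2).

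STK is transcribed from the minus strand, and 4 of its 5 regions are upstream of it, in the interval to AT4G09965. The best ranked in gFLM is centred 2984 bp upstream (chromosome 4, 6243826 to 6244007). It had 8, 0 and 13 reads in GFP libraries and 1, 0 and 1 in controls. The log2 ratios were 0.91 in replicate 1 and 3.14 in replicate 3, a mean of 2.02 ± 1.58 (SD, n = 2), and replicate 2 had no reads there. The q-values were 0.269, 1 and 3.57e-04, so it did not pass. This region is 823 bp past the end of AT4G09965, and the low-count filter of edgeR removed it. Without that filter its log2 fold change was 2.64 with an unadjusted p of 0.0235 and an adjusted p of 1. That run called 0 of all 19893 gFLM regions.

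A site nearer to STK was deposited for gFLM and for iFLMbeta. The gFLM region there is centred 1656 bp upstream (chromosome 4, 6242437 to 6242740), with 23, 1 and 15 GFP reads against 8, 2 and 12 control reads. Its log2 ratios were 0.15, -2.70 and 0.63, a mean of -0.64 ± 1.80 (SD, n = 3), and the low value rests on 3 reads in replicate 2. The q-values were 0.297, 1 and 0.067. The iFLMbeta region lies within it (chromosome 4, 6242496 to 6242659), with 11 and 14 reads in GFP libraries and 12 and 0 in controls. Its ratios were -0.96 and 2.12 and its q-values 0.657 and 0.0259. By edgeR the log2 fold change was 0.05 with a standard error of 0.67 in gFLM and -0.01 with a standard error of 0.70 in iFLMbeta, and the difference between the constructs was -0.08 with a standard error of 0.99 (adjusted p of 0.997, 1 and 1).

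The remaining regions of STK, both in iFLMbeta, had few reads. That 387 bp upstream (chromosome 4, 6241249 to 6241391) is at nearly the same distance from its gene as the SHP2 region. It had 6 and 10 GFP reads against 4 and 2 control reads, with a mean log2 ratio of -0.13 ± 0.32 (SD, n = 2). The other is in a coding exon, 1630 bp past the 5' end (chromosome 4, 6239234 to 6239372), with 11 and 3 reads in GFP libraries, against 6 and 5 in controls, and a mean ratio of -1.22 ± 1.63 (SD, n = 2). The iFLMdelta table lists no region for STK by the rule.

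AG, the founding member of the clade, had no gFLM region by the rule, and its 3 regions in the variants are all in introns. Which intron is not given in the tables. The iFLMbeta region is 2271 bp past the 5' end (chromosome 4, 10385047 to 10385207). It had 7 and 9 reads in GFP libraries, against 2 and 6 in controls, with log2 ratios of 0.57 and -1.27, and ranked 11795 of 13791. The iFLMdelta regions are 2679 and 1041 bp past the 5' end (chromosome 4, 10385423 to 10385647 and 10383825 to 10383968). The first had 25 and 9 GFP reads against 11 and 5 control reads, and the second had 14 and 10 GFP reads against 5 and 7. Their mean log2 ratios were 0.01 ± 0.29 and -0.03 ± 0.05 (SD, n = 2), and crossed control columns gave SDs of 0.76 and 0.90. The lowest q-value at AG was 0.154. By edgeR the first of the iFLMdelta regions had a log2 fold change of 0.11 with a standard error of 0.69 and an adjusted p of 1.

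**Figure D3:**
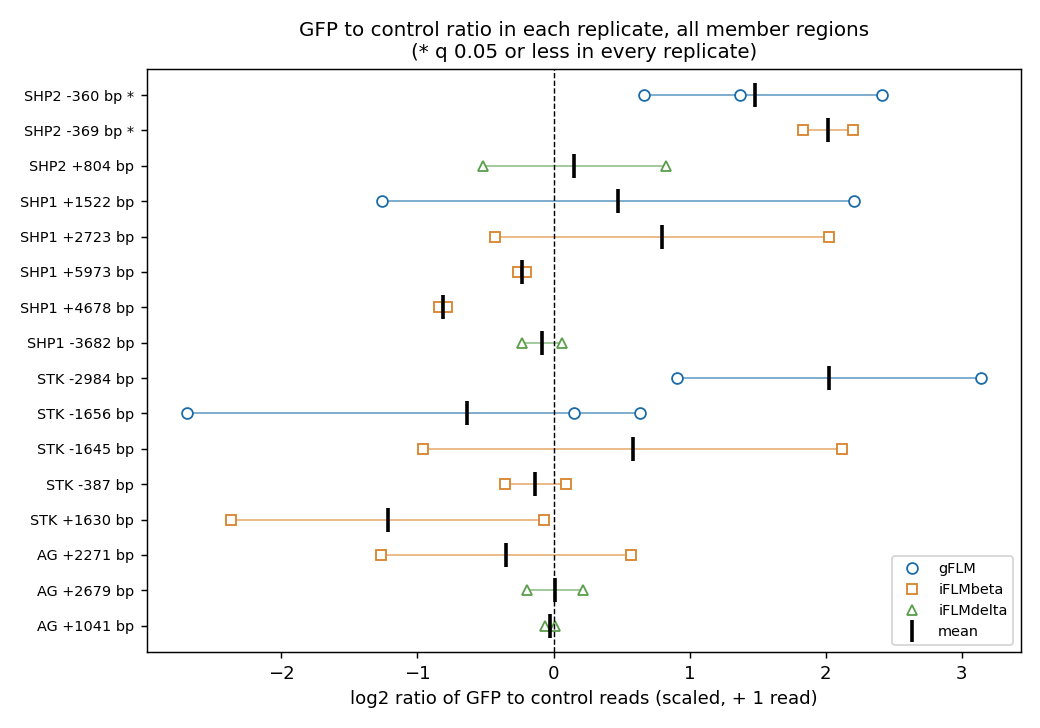
Scaled log2 GFP to control ratio in each replicate (symbols) and their mean (bar) at all 16 regions. Regions are named by gene and distance from its 5' end in bp. Replicates pair GFP and control columns by number, which no label supports in iFLMbeta and iFLMdelta. The SHP2 regions at -360 and -369 bp have all replicates above 0 and pass, STK at -2984 bp has its 2 available replicates above 0, and most others straddle 0.

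Over the 16 regions, 7 had enough reads to pass the filter of edgeR, namely 2 in gFLM, 4 in iFLMbeta and 1 in iFLMdelta, and the other 9 were not tested. edgeR called 0 of the 7, against 0.574% of the regions tested in gFLM, 0.341% in iFLMbeta and 0% in iFLMdelta. At an unadjusted p under 0.05, with GFP higher, stood 2 of the 7, which were those upstream of SHP2. These were 1 of 2 in gFLM, against 5.18% of all tested regions, 1 of 4 in iFLMbeta, against 1.43%, and 0 of 1 in iFLMdelta, against 0.13%. DESeq2 also called 0 of the 7. Over all tested regions it called 83 of 5230 in gFLM, 29 of 7337 in iFLMbeta and 0 of 4607 in iFLMdelta. Its adjusted p was 0.3 for SHP2 in gFLM. It gave no adjusted p to STK at 1656 bp in gFLM or to any of the 4 iFLMbeta regions, so these could not be called. At SHP2 in iFLMbeta its unadjusted p was 0.00525. The median of the mean log2 ratios was 0.98 over the 4 clade regions of gFLM, -0.18 over the 8 of iFLMbeta and -0.01 over the 4 of iFLMdelta. Over all deposited regions it was -0.24, -0.15 and -0.03 in the same order of constructs.

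Outside SHP2, 4 clade regions had a q-value of 0.05 or less in 1 replicate only, 2 in gFLM and 2 in iFLMbeta. Counting SHP2, 3 of 4 and 3 of 8 regions met the threshold in at least 1 replicate, against 13.3% and 16.1% of all deposited regions, and in iFLMdelta 0 of 4 did, against 20.3%. In gFLM both were called in replicate 3, at STK with 1 control read and at SHP1 with 2 control reads there. In iFLMbeta both were called in the second column, where the control had 0 reads. Of the 675 iFLMbeta regions with such a q-value in the second column alone, 24.6% had 0 control reads in it, against 6.04% of all deposited iFLMbeta regions. For the 1349 regions with one in the first column alone, the shares in that column were 3.71% against 0.892%, so an excess was present there too. The second iFLMbeta control was also the shallower, with 52819 reads in deposited regions against 108460. The part of that depth in these calls was not tested.

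The paralogs were contrasted inside libraries, where no scaling between libraries is needed. For each library the log2 ratio of reads at the SHP2 region to reads at the best ranked region of another gene was formed, with 1 read added to each, and GFP libraries were set against controls. In iFLMbeta the SHP2 to AG ratio was 2.04 and 2.29 in GFP libraries, against 0.42 and -0.81 in controls. The groups did not overlap, with a GFP minus control difference of 2.36. Against STK the iFLMbeta difference was 1.43 and against SHP1 it was 1.22, and in both cases the control values, at -1.70 and 2.00 for STK and -1.17 and 2.00 for SHP1, spread wider than the GFP values. Without the first control column these differences turned to -0.42 for STK and -0.37 for SHP1.

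In gFLM the SHP2 to SHP1 ratio was 4.56, 4.52 and 1.40 in GFP libraries, against 1.93, 0 and 2.94 in controls, a difference of 1.87. The SHP2 to STK ratio was 3.71, 4.52 and 1.05 in GFP libraries, against 3.25, 0 and 3.52 in controls, a difference of 0.84, and the groups overlapped in both contrasts. The control of replicate 2 had 0 reads at all 3 regions, so its ratios of 0 come from the added read alone. Without it the differences were 1.06 from SHP1 and -0.29 from STK, and without the GFP library of replicate 2 the difference from STK was 0.12. In iFLMdelta, where the SHP2 region is the one inside the gene, the differences were 0.24 from SHP1 and 0.14 from AG, and both fell below 0 without the first GFP column or the first control column. Over these 7 pairs the exact two-sided permutation test gave p of 0.3 to 1 and adjusted p of 1. The smallest p the design allows is 0.1 with 3 libraries a group and 0.333 with 2, so none could pass. SHP2 over AG in iFLMbeta reached that limit of 0.333. SHP2 was put on top of every pair with its passing regions known, which favours large differences. The other regions were the best ranked of their gene, which favours small ones where a gene had more than 1 region. AG in iFLMbeta and SHP1 in gFLM and in iFLMdelta had 1 region each, so no such choice was made there.

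SHP2 stood among other flower genes with passing regions. The genes were 12 MADS-box partners, 14 regulators of AG and 17 carpel and fruit genes, listed with earlier results of these data known. Of the partners, SEP3, AP3, PI and TT16 had a passing region within 5000 bp in gFLM and in iFLMbeta (4 of 12 in each, against 1.1% and 1.43% of protein-coding genes). At 3 of these 4 another gene is nearer to the gFLM region, AT1G24265 at 1647 bp (SEP3 at 2712 bp), AT5G20250 at 570 bp (PI at 1573 bp) and AT5G23250 at 572 bp (TT16 at 2680 bp), while AP3 is the nearest gene of its own. SEP3 encodes a partner that joins AG-clade proteins in complexes, AP3 and PI specify petals and stamens, and TT16 acts in the seed coat. Of the regulators of AG, AP2, which restricts AG to the inner whorls, had one in both (1 of 14), though that region is nearer to AT4G36910 (2484 bp) than to AP2 (4786 bp). Of the carpel and fruit genes, ALC and SPT had one in both constructs and VDD in iFLMbeta (2 of 17 and 3 of 17). The VDD region is also nearer to AT5G18005 (425 bp) than to VDD (630 bp), and ALC and SPT are the nearest genes of theirs. ALC acts with the SHP genes where the fruit opens, SPT in the growth of the carpel margin, and VDD in the female gametophyte.

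By mean log2 ratio SHP2 was at the lower end of this group in gFLM and near its top in iFLMbeta. In gFLM SEP3 (3.77 ± 0.58), AP2 (3.66 ± 0.62) and ALC (3.14 ± 1.05) were above SHP2 (1.48 ± 0.88) by more than its SD. SPT (2.18 ± 0.70), PI (1.68 ± 0.92) and TT16 (1.49 ± 0.83) were also higher, but within that SD. AP3 (1.40 ± 0.75) was lower, within it as well (n = 3 each). In iFLMbeta SEP3 alone was above SHP2, at 3.42 ± 0.84 (n = 2). The others ran from 0.47 ± 0.21 at VDD to 1.76 ± 0.53 at AP2 (n = 2 each). These iFLMbeta SDs pair columns by number, and crossed values are not given for them. By the authors' rank over all deposited iFLMbeta regions, SHP2 (57) came after SEP3 (2), AP2 (14), ALC (34), SPT (41) and PI (47). It came before AP3 (102), TT16 (114) and VDD (227). The ALC region is 150 bp upstream in gFLM and 87 bp in iFLMbeta, and that of AP3 120 and 80 bp, so these share with SHP2 a place close to the 5' end. The regions at SEP3, TT16 and SPT are more than 2000 bp upstream, and that of PI is 1573 bp past its end. edgeR called SEP3, AP2 and ALC in gFLM (adjusted p of 1.32e-04, 0.00127 and 0.00318) and SEP3 and AP2 in iFLMbeta (3.75e-15 and 0.0121). In iFLMdelta 0 of these 43 genes had a passing region, where 0.272% of protein-coding genes did. None had an edgeR call either, but edgeR called 0 of all 4607 tested iFLMdelta regions.

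**Figure D4:**
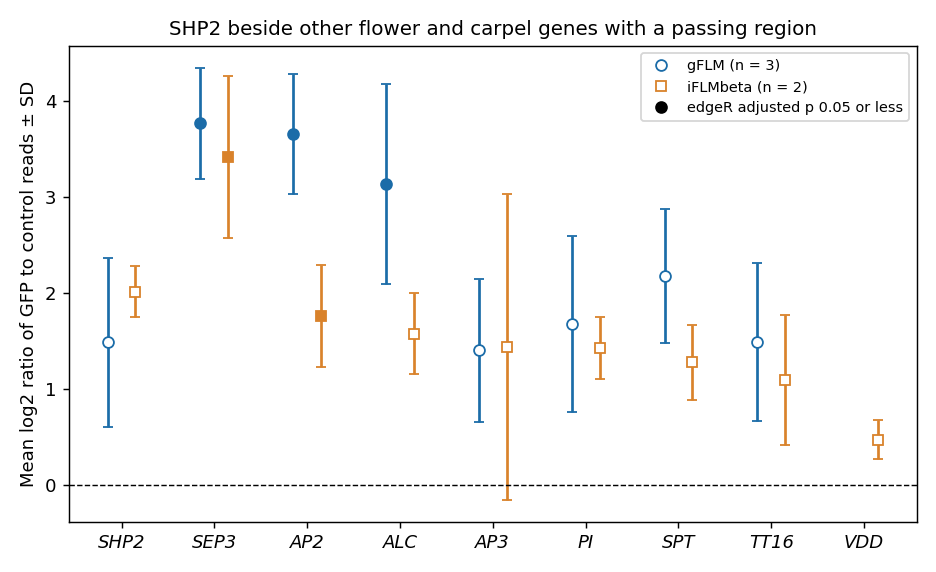
Mean log2 GFP to control ratio ± SD at the passing region of SHP2 and of 8 other flower and carpel genes, for gFLM (circles, n = 3) and iFLMbeta (squares, n = 2). Filled symbols mark an edgeR adjusted p of 0.05 or less, which SHP2 did not reach in either construct. Ratios and SDs pair GFP and control columns by number, which no label supports in iFLMbeta.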

How the data were processed

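For each construct the authors deposited a region table, on build TAIR10 per the submitters' processing notes. It holds raw read counts by library, a q-value by the Benjamini-Hochberg method for every replicate, and the log2 rank product of these q-values with its rank, per the file headers and the description deposited with them. No source used here names the aligner, the peak caller or the treatment of duplicates. The iFLMbeta and iFLMdelta columns carry a number but name no library, so they were used as unnumbered replicates of their group.

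Positions relative to gene ends were taken from the deposited distances. The left end of STK, needed for the next check alone, came from RefSeq TAIR10.1. Rows that end before the gene on the right were checked, and 0 of them lay where a clade gene could have been lost. edgeR 4.0.16 (quasi-likelihood, TMM, filterByExpr, Benjamini-Hochberg over all tested regions) and DESeq2 1.42.0 were run in R 4.3.3 on whole tables and tested on simulated counts. The interaction term used regions overlapping by 1 bp or more. Ratios add 1 read and are scaled by reads in all deposited regions, which were selected for GFP reads, and a replicate with 0 reads in both libraries gave none. Exact permutations used SciPy 1.17.1. Gene names come from RefSeq TAIR10.1. The gFLM ratios pair libraries by replicate number. Deviations of same-numbered libraries from their group means correlated across regions, with r of 0.53, 0.24 and 0.12 for replicates 1, 2 and 3. In replicate 3 this was weak, as GFP replicate 3 had an r of 0.077 with control replicate 2. The main edgeR tests and the permutations did not use the pairing, and a replicate block was run as an alternative. Reads by library are given for all clade regions, and q-values by replicate for those with a q-value of 0.05 or less in any replicate. Ratios by replicate and scaled levels are given for some regions only. Of the listed genes, those with a passing region or an edgeR call are named. The genes and lists were chosen with earlier results of these data known.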

Additional observations from a re-analysis of the deposited data

How the results depend on the processing

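At the region upstream of SHP2 the direction held under every alternative run. The log2 fold change ran from 1.21 to 1.72 in gFLM (adjusted p 0.226 to 1) and from 1.87 to 2.97 in iFLMbeta (0.164 to 1), and the gFLM minus iFLMbeta difference from -1.81 to -0.66. edgeR and DESeq2 called 0 clade regions in each construct under every alternative that kept 2 or more libraries a group. Some of these runs called 0 regions of the whole table, so their 0 is not particular to the clade. These were gFLM without the low-count filter (0 of 19893) and iFLMbeta with crossed numbers (0 of 7337). In iFLMdelta it was every such run, with 0 of 4607 regions called, or 0 of 10006 without the filter. DESeq2 gave the clade regions of iFLMbeta no adjusted p. The replicate block gave 1.38 at SHP2 in gFLM with an adjusted p of 0.226 and changed no clade call, while calls of higher GFP over all gFLM regions numbered 115 with it and 30 without. With the column numbers as a block iFLMbeta gave 14 calls over all regions in place of 25, and with crossed numbers 0, while iFLMdelta gave 0 with either. By q of 0.01 or less in every replicate the passing count in gFLM was 0 in place of 1, since the third q-value at SHP2 was just over it. By q of 0.05 or less in at least 1 replicate it was 3 in gFLM and 3 in iFLMbeta. Uncalled values near 0 changed sign, and the cause was not tested beyond the library left out. In gFLM STK at 1656 bp gave -0.014 with DESeq2 and -0.52 to 0.58 with libraries left out, below 0 when the third GFP library or the first control (-0.11) was left out. In iFLMbeta STK at 1645 bp gave 0.12 with DESeq2, 0.25 with the block, 0.24 with crossed numbers, 0.40 without the first GFP column and -0.67 to 6.27 over all columns left out, the highest without the first control, which leaves a control of 0 reads. SHP1 at 2723 bp gave -0.15 without the second control and 6.21 without the first. SHP1 at 5973 bp past its 5' end ran from -0.43 to 0.25, above 0 without the first control or the second GFP column (0.07). In iFLMdelta AG at 2679 bp gave -0.065 without the filter and -0.32 to 0.53 with columns left out, below 0 without the first GFP column or the second control (-0.19). Leaving out 1 library, the STK difference between constructs ran from -6.33 to 0.53. The paralog contrasts of SHP2 ran from -0.29 to 1.86 over STK and 1.06 to 2.92 over SHP1 in gFLM. In iFLMbeta they ran from -0.42 to 3.28 over STK, -0.37 to 2.80 over SHP1 and 1.75 to 2.98 over AG, and in iFLMdelta from -0.29 to 0.77 over SHP1 and -0.36 to 0.64 over AG. Reads at the clade regions went down to 0 in some libraries of each kind in gFLM and in the second control of iFLMbeta, and the part of depth in the missing calls was not tested.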
